A study of Arabidopsis thaliana with 9 samples.

Results

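C2 domains are small protein folds that, in many proteins, dock onto membrane lipids when calcium rises. The CAR family of Arabidopsis consists of short proteins built around a single such domain, and CAR proteins are known to bind the PYR/PYL receptors of abscisic acid, a drought hormone, and to bring them to membranes. The genes described here are 6 CAR-family genes (AT5G37740, AT1G70790, AT2G01540, AT1G70810, AT1G70800 and AT1G23140) and a further C2-domain gene, AT5G47710, together 7 of the 10224 genes of a yeast two-hybrid prey table. They were chosen by having reads in that table and with their levels by bait known, so their differences between baits are given as a description and were not tested. Of the 10 CAR-family genes listed, the other 4 (AT1G66360, AT1G73580, AT1G48590 and AT3G17980, which carries the symbol C2) were not analysed here.

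In the screen, a bait protein and the products of an Arabidopsis cDNA library, the preys, were joined to the separate parts of a transcription factor, so that yeast in which bait and prey met could grow without histidine. The baits were PKS5, a protein kinase of the group regulated by calcineurin B-like calcium sensors, SCAB1, a plant actin-binding protein, and SOS2, a kinase of the same group as PKS5 that acts in salt tolerance. Each bait had 3 libraries, with recovery times of 0, 2 and 4 h in replicates 1, 2 and 3, and all 9 came from more than 3000 colonies each, selected on medium lacking tryptophan, leucine and histidine with 1 mM 3-AT, which inhibits the HIS3 enzyme. No label names an unselected library or a separate culture for each library, so each bait was read against the other baits, and p-values measure only the spread between these libraries. Libraries held 1640114 to 3288437 reads, and levels are given in CPM, the reads of a gene divided by those of its library and scaled to a common total. A count of 0 allows up to 3 reads, which were 0.912 to 1.83 CPM by library, for counting error only, since reads are PCR copies. A level follows how many colonies and copies carried a prey and is not a binding strength.

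The 7 genes together took 19.9% ± 0.825 of the reads with PKS5 (SD, n = 3), against 3.91% ± 0.388 with SCAB1 and 1.30% ± 0.321 with SOS2. The lowest PKS5 library, at 19.3%, lay above the highest library of the other baits, at 4.35%. Within that share the make-up differed by bait. AT1G70790 supplied 62.0% ± 2.45 of it with PKS5, 97.8% ± 0.362 with SCAB1 and 37.6% ± 5.95 with SOS2. AT5G37740 supplied 21.9% ± 0.370 with PKS5, 0.135% ± 0.0482 with SCAB1 and 59.6% ± 7.11 with SOS2. AT5G47710 supplied 13.3% ± 2.41 with PKS5, and 0.0338% ± 0.0154 with SCAB1 and 0.475% ± 0.238 with SOS2. Of the reads of these 7 genes, nearly all in the SCAB1 libraries were thus of AT1G70790, and nearly all in the SOS2 libraries of AT5G37740 and AT1G70790.

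**Figure D1:**
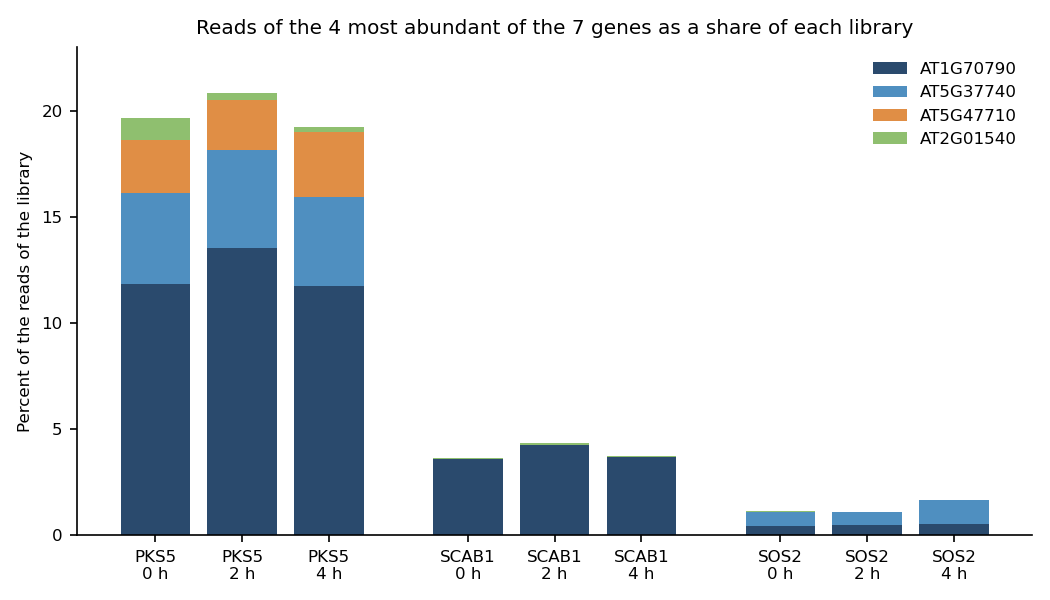
Share of all reads of each library, in percent, taken by the 4 most abundant of the 7 genes (the leading preys), stacked, for the 9 libraries ordered by bait and recovery time. The PKS5 bars reach 19.3% to 20.8% built mostly of 3 genes, the SCAB1 bars 3.63% to 4.35% with AT1G70790 alone filling nearly all of them, and the SOS2 bars 1.11% to 1.67%.

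AT1G70790, a CAR-family gene, was the second most abundant prey of all genes in each PKS5 library. It stood at 118386, 135057 and 117358 CPM in the PKS5 libraries of 0, 2 and 4 h. In the same order it stood at 35653, 42382 and 36570 CPM with SCAB1, and at 4357, 4717 and 5167 CPM with SOS2. No 2 baits overlapped, and the libraries of a bait lay close together, and their coefficients of variation were 8.04% (PKS5), 9.55% (SCAB1) and 8.55% (SOS2). The mean with PKS5 was 3.24 times that with SCAB1 and 26.0 times that with SOS2. It ranked 7 or 8 among the preys of the SCAB1 libraries and 30 to 34 among those of the SOS2 libraries, so it was an abundant prey of every bait.

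AT5G37740, a CAR-family gene too, ranked 6 in every PKS5 library, but it was not abundant with every bait. It had 42671, 46611 and 41837 CPM in the PKS5 libraries of 0, 2 and 4 h. With SCAB1 it had 67.5, 56.4 and 33.5 CPM, and with SOS2 6328, 6025 and 11293 CPM. The baits did not overlap, and their order differed from that of AT1G70790, with SOS2 between PKS5 and SCAB1. The mean with PKS5 was 833 times that with SCAB1 and 5.55 times that with SOS2, and the mean with SOS2 was 150 times that with SCAB1.

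AT5G47710, the C2-domain gene outside the CAR list, had the largest ratios between PKS5 and the other baits among the 4 leading preys. Its level was 24877, 23531 and 30767 CPM in the PKS5 libraries of 0, 2 and 4 h, where it ranked 7 each time. It was 14.99, 6.995 and 16.5 CPM with SCAB1, and 55.1, 77.8 and 38.0 CPM with SOS2. The mean with PKS5 was 2059 times that with SCAB1 and 463 times that with SOS2. All 6 libraries of the other baits still held reads of it, between 16 and 152 each, above the 3 reads that a count of 0 allows.

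AT2G01540, a CAR-family gene, was lower than those 3 preys in every PKS5 library and varied more among them. The PKS5 libraries held 10397, 3118 and 2531 CPM at 0, 2 and 4 h, a coefficient of variation of 81.9%. With SCAB1 it had 578, 1044 and 732 CPM, and with SOS2 396, 251 and 175 CPM. The baits came in the order of AT1G70790, PKS5 above SCAB1 above SOS2, without overlap. The mean with PKS5 was 6.82 times that with SCAB1 and 19.5 times that with SOS2.

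The other 3 CAR-family genes were near the limit of detection. AT1G70810 had 6, 3 and 12 reads in the PKS5 libraries, 5, 0 and 1 in the SCAB1 libraries and 12, 11 and 8 in the SOS2 libraries. EHB1 (AT1G70800), known for a part in the bending growth of seedlings, had 4, 7 and 6 reads in the PKS5 libraries, 4 in the SCAB1 library of 0 h and 0 in the other 5 libraries. In the SOS2 libraries, where it had none, a count of 0 allows 0.912 to 1.54 CPM. AT1G23140 had 1 read in the PKS5 libraries, none in the SCAB1 libraries, and 5 and 1 in the SOS2 libraries of 0 and 4 h, the fewest of the 7 genes. The 4 CAR-family genes not analysed here lie beyond that end of the choice and have no value. At these numbers an order of the baits was not detectable for AT1G70810 and AT1G23140.

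EHB1 reads are uncertain for a further reason. In the RefSeq gene models (assembly TAIR10.1), AT1G70790, AT1G70800 and AT1G70810 are consecutive protein-coding genes, and the models of AT1G70790 and AT1G70800 overlap by 52 bp. The labels and the table do not say how a read in such an overlap, or a read shared by similar family members, was assigned. The libraries with EHB1 reads were the 3 PKS5 libraries and 1 SCAB1 library, and AT1G70790 had 71354 to 408713 reads there. The SCAB1 library of 2 h had 96940 reads of AT1G70790 and none of EHB1. The part of AT1G70790 in the EHB1 counts was not tested. The 3 neighbours differed widely as preys, with AT1G70790 far above the other two in all 9 libraries.

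**Figure D2:**
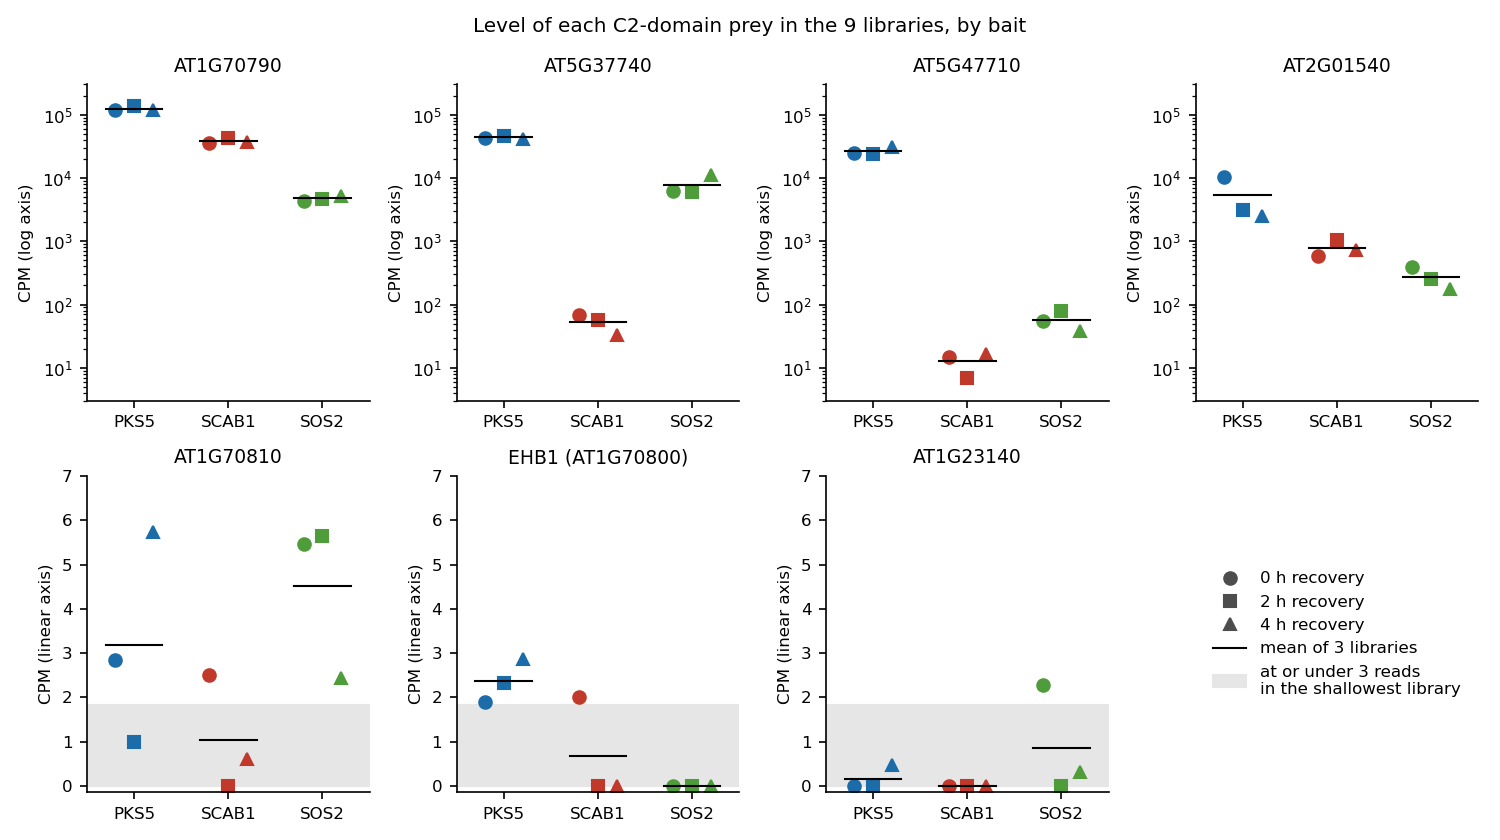
Level in CPM of each of the 7 genes in the 9 libraries by bait, on a log axis for the 4 leading preys and on a linear axis for the others. Symbols mark recovery time, black lines the mean of 3 libraries, and grey the range at or under 1.83 CPM, which is 3 reads in the shallowest library. The PKS5 points lie above all others for AT1G70790, AT5G37740, AT5G47710 and AT2G01540, while the SCAB1 and SOS2 points change places between genes.

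Of the 7 genes, 5 passed the filter on low reads used for tests, and EHB1 and AT1G23140 did not. All PKS5 libraries stood above all libraries of the other baits for 4 of those 5, where 3.12% of the 3811 genes that passed did so. Because the genes were chosen with these levels known, nothing is read from that difference. PKS5 was set against the mean of the other baits on the scale of log2(CPM + 1). The difference was 9.92 ± 0.45 for AT5G47710, 6.13 ± 0.37 for AT5G37740, 3.29 ± 1.16 for AT2G01540 and 3.20 ± 0.15 for AT1G70790 (SD, combined from the spread within each of the 3 baits). It was 1.47 ± 0.50 for EHB1, 0.28 ± 1.03 for AT1G70810 and -0.16 ± 0.55 for AT1G23140.

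The number of distinct reads, which the table gives beside the reads, gives another view of each level. How a read was counted as distinct is not stated in the labels or the table, and the column of the SCAB1 library of 4 h was not used, because it repeats that of the SCAB1 library of 2 h. AT1G70790 had 96, 99 and 85 distinct reads in the PKS5 libraries of 0, 2 and 4 h. It had 78 and 57 in the SCAB1 libraries of 0 and 2 h, and 46, 50 and 52 in the SOS2 libraries. The mean of these counts with PKS5 was 1.38 times that with SCAB1 and 1.89 times that with SOS2. These counts are not scaled to the library, so their ratios are not directly comparable with those of CPM. Scaled to the distinct reads of each library, AT1G70790 had 3068, 4495 and 3144 with PKS5. On that scale it had 2100 and 2520 with SCAB1, and 962, 1176 and 1387 with SOS2. The baits then lay further apart than in unscaled counts, but still closer together than in CPM. A distinct read of AT1G70790 stood for 2603 to 4128 reads with PKS5, 915 to 1701 with SCAB1 and 184 to 327 with SOS2, against 45.9 to 137 over whole libraries.

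AT5G37740 had 70, 64 and 57 distinct reads with PKS5, 6 and 6 with SCAB1, and 46, 58 and 51 with SOS2. These unscaled counts overlapped between PKS5 and SOS2, with means 1.23 times apart. However, the SOS2 libraries held 37497 to 47817 distinct reads in all, against 22024 to 31294 in the PKS5 libraries. Scaled to the library, AT5G37740 had 2237, 2906 and 2108 with PKS5 and 962, 1364 and 1360 with SOS2. On that scale PKS5 and SOS2 did not overlap, as in reads. AT2G01540 had 41, 29 and 29 distinct reads with PKS5, 23 and 17 with SCAB1, and 12, 13 and 18 with SOS2. AT5G47710 had 34, 29 and 25 distinct reads with PKS5, but only 2 and 1 with SCAB1 and 3, 2 and 2 with SOS2. Outside PKS5 it had 1 to 3 distinct reads in the libraries whose column could be used. EHB1 had 4 distinct reads in each of the 4 libraries where it was seen, and AT1G70810 at most 4.

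**Figure D3:**
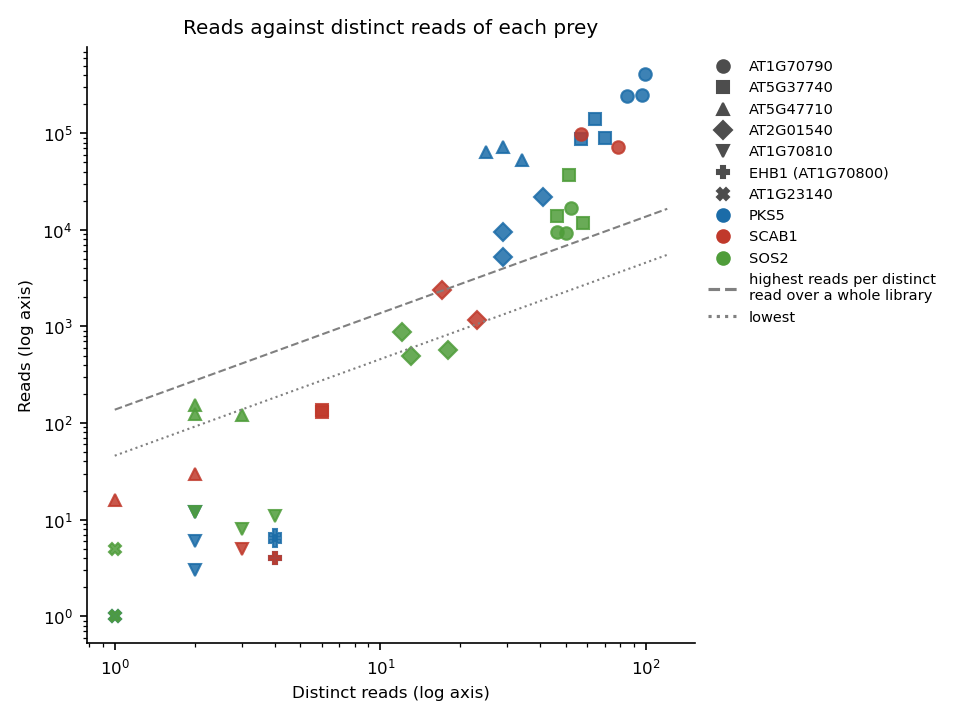
Reads against distinct reads of each gene in the 8 libraries whose distinct-read column could be used, on log axes, with gene by symbol and bait by colour; points with 0 distinct reads are left out. The dashed and dotted lines are the highest and lowest reads per distinct read over a whole library, 137 and 45.9. AT1G70790 and AT5G37740 lie above both lines with PKS5 and with SOS2, whereas AT5G37740 with SCAB1 lies below both, at 21.5 and 22.5 reads per distinct read.

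Recovery time was not used to choose the genes, and its effect was tested by limma-voom over all 3811 genes that passed the filter, with bait as a block. No gene of the table was called at an adjusted p under 0.05 for 2 and 4 h against 0 h (0% of the genes tested), with 453 at an unadjusted p under 0.05, and none for 4 h against 2 h (0%), with 274 at an unadjusted p under 0.05. None of the 5 C2-domain genes tested was therefore called. The log2 difference of 2 and 4 h over 0 h was 1.42 (SE 0.46, adjusted p = 0.192) for AT1G70790, 1.17 (SE 0.38, adjusted p = 0.192) for AT5G47710 and 1.14 (SE 0.43, adjusted p = 0.26) for AT5G37740. It was 0.64 (SE 0.44, adjusted p = 0.642) for AT2G01540 and 0.41 (SE 0.57, adjusted p = 0.865) for AT1G70810. For 4 h against 2 h the adjusted p-values of the 5 genes ran from 0.821 to 0.972.

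The sign and size of these differences depended on the scaling. The test scaled libraries by TMM factors, which centre on the bulk of the genes, and the median over all genes tested was 0.08. Scaled by library size alone, that median fell to -1.20, and the log2 differences became 0.13 for AT1G70790, 0.11 for AT5G37740, 0.02 for AT5G47710, -0.95 for AT2G01540 and -1.05 for AT1G70810. Relative to the median of all genes they were then 1.33, 1.31, 1.22, 0.25 and 0.15 in the same order. In CPM, AT1G70790 at 2 and 4 h was 0.991 to 1.19 times its level at 0 h in every bait, so its share of the library stayed level while that of the median gene dropped. Leaving out the PKS5 library of 4 h brought AT1G70790 (adjusted p = 0.0129) and AT5G37740 (adjusted p = 0.0398) past the threshold. AT1G70790 passed also when only genes of 100 reads or more were tested (adjusted p = 0.0370). Over all alternatives the adjusted p went from 0.0129 to 1.00 for AT1G70790 and from 0.0398 to 1.00 for AT5G37740.

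In CPM, AT2G01540 was lower at 2 and 4 h than at 0 h with PKS5 and SOS2, and higher with SCAB1. At 2 and 4 h its CPM was 0.30 and 0.243 times the level at 0 h with PKS5, 1.81 and 1.27 times with SCAB1, and 0.633 and 0.441 times with SOS2. Its distinct reads, scaled to the library in the same way, were 1310, 1317 and 1073 with PKS5 at 0, 2 and 4 h, and 251, 306 and 480 with SOS2, so that the direction with SOS2 turned on this measure. On the TMM scale of the tests, the log2 change was -1.01 with PKS5, 2.11 with SCAB1 and 0.54 with SOS2, and the direction with SOS2 turned there too. Fitted as a difference between baits in the change from 0 h, an alternative added after the data were seen, PKS5 minus SCAB1 was -3.12 on the log2 scale (SE 1.05) and was not called over all genes (adjusted p = 0.847 by limma-voom, 0.0555 to 1.00 over its alternatives). AT5G37740 at 2 and 4 h was 1.09 and 0.98 times its 0 h level with PKS5, 0.836 and 0.497 times with SCAB1, and 0.952 and 1.78 times with SOS2. With 1 library per bait and time, the course within a bait has no replicate check.

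**Figure D4:**
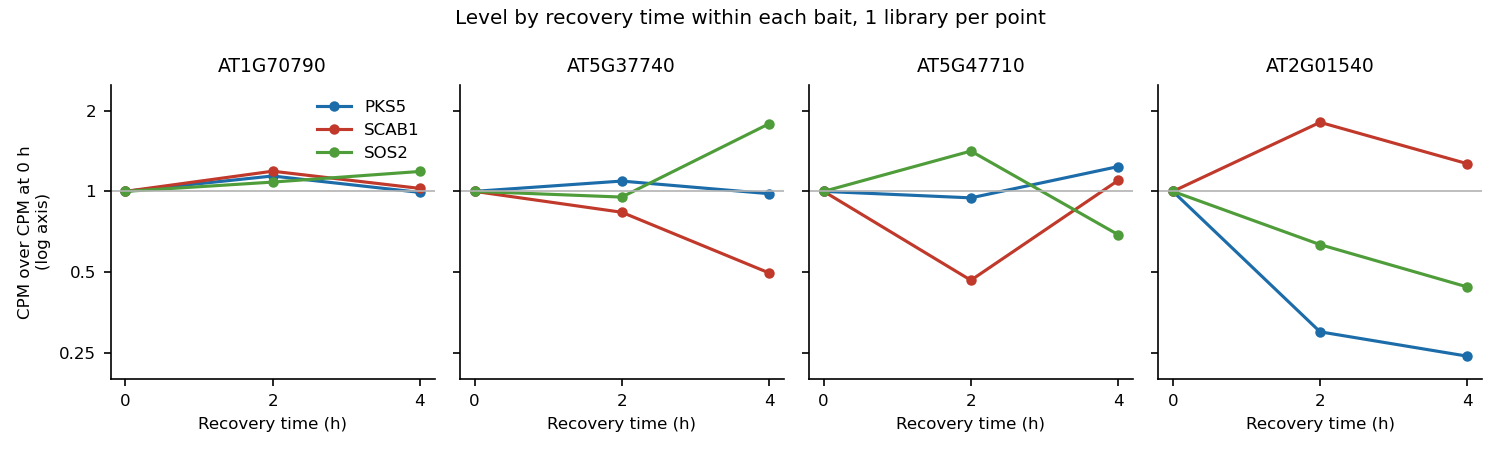
CPM at 0, 2 and 4 h divided by the CPM at 0 h of the same bait, on a log axis, for the 4 leading preys, with 1 library per point and colour for bait. AT1G70790 stays between 0.991 and 1.19 in all baits, and AT2G01540 drops to 0.243 with PKS5 and 0.441 with SOS2 but stands at 1.27 with SCAB1 at 4 h.

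Genes whose levels followed those of each leading prey were ranked by Pearson r of log2(CPM + 1) over the 9 libraries, among 576 genes with a mean of at least 100 CPM. The libraries fall into baits, so r mainly compares the bait levels, and it is given as a description. Most like AT1G70790 were MYB3, a MYB transcription factor (r = 0.990, with 23134, 12589 and 3034 CPM on average in PKS5, SCAB1 and SOS2), AT4G02840 (0.954) and AT1G21528 (0.908). Most like AT5G37740 were AT5G54370 (0.992, at 1033 and 179.5 CPM with PKS5 and SOS2 and no read with SCAB1), AT1G01730 (0.985) and AT5G05360 (0.975). Most like AT5G47710 were AT5G48240 (0.998), AT5G52550 (0.997) and AT1G20100 (0.993), which averaged 2011, 6900 and 2285 CPM with PKS5 and at most 12.4 CPM with either other bait. Most like AT2G01540 were PMEI1, an inhibitor of pectin methylesterase (0.933), UBQ3, a polyubiquitin (0.921), and AT4G02840 (0.912). No gene was among the nearest 3 of more than 1 leading prey except AT4G02840, named for AT1G70790 and AT2G01540. By rank correlation the order differed, and AT5G54370 for example held place 13.

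Other C2-domain proteins of different build were followed from a list of 22, of which 12 were in the table and 8 passed the filter. They are not among the 7 genes, and their bait differences were tested by limma-voom over all genes. The list was chosen with earlier results of these data known, so its counts beside those of all genes are a description. With PKS5, 3 of the 8 were higher and 2 lower than the mean of the remaining baits, where 6.01% of all genes tested were higher and 21.6% lower, and the median log2 difference of the list was -0.05 against -0.14 over all genes. For SCAB1 none was higher and 6 were lower, against 14.5% and 20.7% of all genes, with a median of -2.59 (-2.39 with BON1 at its bound) against -0.20. For SOS2 5 were higher and 1 lower, against 27.1% and 13.6%, with a median of 2.79 against 0.16. BON1 and ZAC passed the filter only through the SOS2 libraries, where they were high and so had to differ, and their calls are given no weight. Without them 6 genes were tested, with 3 higher and none lower for PKS5, none higher and 4 lower for SCAB1, and 3 higher and 1 lower for SOS2. The median log2 differences then moved to 0.95 for PKS5, -2.06 for SCAB1 and 0.86 for SOS2. These 6 still hold NTMC2T2.1, which reached the read limit in 3 SOS2, 1 PKS5 and 0 SCAB1 libraries. They also hold PLDGAMMA1, which reached it in 3 PKS5, 1 SCAB1 and 1 SOS2 libraries. Neither would have passed the filter without the bait where it was high, so their calls are given no weight either. The genes lower with SCAB1 were SYTA, PLDGAMMA1, ZAC, SRC2, BON1 and NTMC2T2.1, and the gene lower with SOS2 was PLDGAMMA1. Of these calls, that of NTMC2T2.1 with SCAB1 (adjusted p = 0.0253) was lost with library size alone and without PKS5 replicate 3, SCAB1 replicate 1 or 3, or SOS2 replicate 2 or 3 (at most 0.114). That of BON1 with SCAB1 (adjusted p = 0.0143) was lost without SCAB1 replicate 1 (0.156). The genes lower with PKS5 were BON1 and ZAC, and those calls were lost in 5 of 10 and 3 of 11 alternatives.

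SYTA, a synaptotagmin that tethers the endoplasmic reticulum to the plasma membrane, had the most reads of the list. It had 3316, 3077 and 4159 CPM with PKS5 at 0, 2 and 4 h, 11.5, 3.93 and 4.88 CPM with SCAB1, and 3251, 2193 and 5736 CPM with SOS2. By limma-voom it was 4.71 log2 units higher with PKS5 than the mean of the other baits (SE 0.57, adjusted p = 7.38e-07). It fell by 8.85 with SCAB1 (SE 0.52, adjusted p = 9.17e-12) and was also higher with SOS2, by 4.14 (SE 0.57, adjusted p = 2.15e-06). In mean CPM SYTA was no higher with PKS5 (3517.5) than with SOS2 (3727), so its call with PKS5 is no difference between the kinases. SYTA thus shared with AT5G37740 an abundance with both kinases and a low level with SCAB1. PLDGAMMA1, a phospholipase D, averaged 168 ± 89.5 CPM with PKS5, 2.01 ± 2.58 with SCAB1 and 3.08 ± 3.07 with SOS2, and was higher with PKS5 (log2 difference 6.39, SE 0.49, adjusted p = 7.22e-10). That call is given no weight, because PLDGAMMA1 would not have passed the filter without the PKS5 libraries, where it was high.

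ZAC, a protein with a C2 domain and an Arf GTPase-activating domain, averaged 236 ± 41.2 CPM with SOS2, against 1.82 ± 0.508 with PKS5 and 0.167 ± 0.288 with SCAB1. NTMC2T2.1, a relative of the synaptotagmins, averaged 38.5 ± 3.76 CPM with SOS2, against 2.39 ± 2.99 with PKS5 and 1.12 ± 1.27 with SCAB1 (adjusted p = 1.08e-06 for SOS2). Its calls are given no weight, because it would not have passed the filter without the SOS2 libraries, where it was high. BON1, a copine, had 111 reads over the SOS2 libraries, against 1 over the PKS5 and 0 over the SCAB1 libraries. SRC2 and PLDALPHA1, named after their values were seen, make up the remaining calls. SRC2 averaged 474 ± 73.5 CPM with PKS5, 130 ± 93.7 with SCAB1 and 388 ± 128 with SOS2, and its higher call with PKS5 (adjusted p = 0.0131) was lost without PKS5 replicate 2 (0.204) and with library size alone (0.0765). PLDALPHA1, a phospholipase D, averaged 84.0 ± 31.0 CPM with SOS2, against 26.6 ± 12.1 with PKS5 and 21.9 ± 10.1 with SCAB1, and was higher with SOS2 (adjusted p = 0.00104), though not among genes with at least 100 reads (0.0652). The eighth gene, PLC2, a phospholipase C, was not called for any bait. Of 8 genes whose RefSeq names or synonyms hold terms such as C2 domain or synaptotagmin, 3 were in the table and 2, SYTA and NTMC2T2.1, were tested. Both are in the list above too, so their counts repeat calls already given. With PKS5 1 of these was higher and none lower (6.01% and 21.6% of all genes), with SCAB1 both were lower (20.7%), and with SOS2 both were higher (27.1%). The calls of NTMC2T2.1 in these counts are given no weight, as said above.

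The PYR/PYL receptors, which perceive abscisic acid and are the known partners of CAR proteins, were followed from a list of 14. Of these 7 were in the table and 6 passed the filter. This list too was chosen with earlier results of these data known, so its counts are a description. With PKS5 none was higher and 4 were lower than the mean of the other baits, against 6.01% and 21.6% of all genes tested, and the median log2 difference was -2.19 against -0.14 over all genes. With SCAB1 4 were higher and none lower, against 14.5% and 20.7%, with a median of 1.55 against -0.20. With SOS2 2 were higher and 1 lower, against 27.1% and 13.6%, with a median of 0.66 against 0.16. RCAR3 passed the filter only through the SCAB1 libraries, where it was high. Without it 3 of 5 were lower with PKS5, 3 higher with SCAB1 and 2 higher with SOS2. The median log2 differences of these 5 were -1.65 with PKS5, 1.42 with SCAB1 and 0.87 with SOS2. PYL5, the receptor with the most reads, had 237, 111 and 253 CPM with PKS5 at 0, 2 and 4 h, 1359, 1035 and 1420 CPM with SCAB1, and 1870, 2151 and 1873 CPM with SOS2, and fell by 3.01 on the log2 scale with PKS5 (SE 0.43, adjusted p = 7.75e-06). PYL1 averaged 87.7 ± 36.7 CPM with PKS5, 717 ± 111 with SCAB1 and 436 ± 58.4 with SOS2, and fell by 2.72 with PKS5 (SE 0.40, adjusted p = 1.27e-05). Both calls were lost when distinct reads were tested in place of reads (adjusted p = 0.207 for PYL5 and 0.346 for PYL1).

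RCAR3, also a receptor of this family, had 351 reads over the SCAB1 libraries, against 0 over the PKS5 and 2 over the SOS2 libraries. PYL6 averaged 3.36 ± 1.22 CPM with PKS5, 14.0 ± 2.19 with SCAB1 and 9.17 ± 3.10 with SOS2, and its lower call with PKS5 (adjusted p = 0.0114) was lost without PKS5 replicate 1 (0.0618) or 3 (0.0638) and with library size alone (0.199), and its higher call with SCAB1 (0.00215) was lost with library size alone (0.26). PYR1 averaged 107 ± 42.2 CPM with SOS2, against 33.2 ± 18.1 with PKS5 and 40.5 ± 28.1 with SCAB1. Its higher call with SOS2 (adjusted p = 0.00903) was lost in 5 of 15 alternatives, among them those without SCAB1 replicate 1 (0.0802) and SOS2 replicate 3 (0.44). The higher calls of PYL5 were likewise lost in 5 of 15 alternatives each, with SCAB1 (adjusted p = 0.0223, at most 0.762) and with SOS2 (0.0126, at most 0.298). The call with SCAB1 ended without SOS2 replicate 2 and without SCAB1 replicate 2 or 3, and leaving out SCAB1 replicate 1 or SOS2 replicate 2 or 3 ended that with SOS2. In reads, PYL5 and PYL1 were lowest in the PKS5 libraries, where AT1G70790 and AT5G37740, chosen with their bait levels known, were highest. A link between these levels was not tested. PYL4 and RCAR1, named after their values were seen, did not share this order. PYL4 averaged 26.6 ± 20.9 CPM with PKS5, 15.5 ± 19.0 with SCAB1 and 44.0 ± 26.5 with SOS2, and was not called for any bait. RCAR1 had 7 reads with PKS5, 1 with SCAB1 and 3 with SOS2 and was not tested.

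Other proteins reported to bind CAR-family members were sparse. FER, a receptor kinase of the cell surface, averaged 11.1 ± 5.57 CPM with PKS5, 6.94 ± 4.07 with SCAB1 and 13.0 ± 11.2 with SOS2, and was not called for any bait (adjusted p = 0.531, 0.506 and 0.995). NPH3, a signalling protein of phototropism, had 0 reads with PKS5, 1 with SCAB1 and 3 with SOS2 and was not tested, and IRT1, an iron transporter, was not analysed here.

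**Figure D5:**
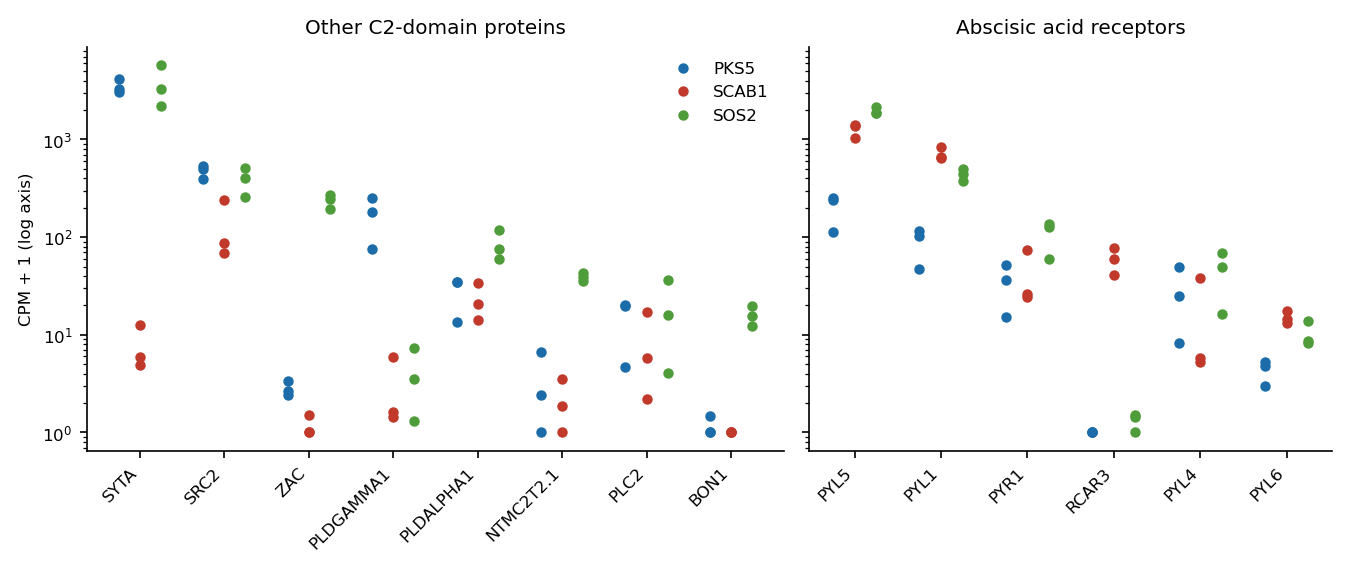
CPM + 1 on a log axis for the 8 tested genes of the list of other C2-domain proteins and the 6 tested abscisic acid receptors, with 1 point per library and colour for bait. SYTA is high with PKS5 and SOS2 and under 12 CPM with SCAB1, ZAC and BON1 are high with SOS2, and PYL5 and PYL1 are lower with PKS5 than with the other baits.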

How the data were processed

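Per the labels' protocols, plasmids of selected yeast were extracted, prey inserts amplified, sheared to fragments of 200 to 300 bp, and those with 29 bp of vector sequence enriched by a second PCR and sequenced. HISAT2, cutadapt 1.18, CASAVA and TAIR10 are named in the submitters' processing notes. The assignment of reads to genes is not described there. Deposited by the authors was 1 table of other, unnormalized values per gene and library: whole-number read counts and unique-read counts, per the file headers, with a mark for no read that was taken as 0. The unique-read column of SCAB1 replicate 3 equals that of replicate 2 and was not used.

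CPM was computed without TMM. Tests used limma-voom (limma 3.58.1, R 4.3.3), with TMM factors, for genes reaching 10 reads (scaled to the median library) in 3 libraries and 15 summed over all, and Benjamini-Hochberg adjustment over them. It was tested on simulated data first. RefSeq held 10201 of the identifiers, and 23 were not found. The genes, lists and tests were chosen with earlier results of these data known. Named are the 7 genes, the other CAR-family genes, the 3 genes most like each leading prey, and from each list the highest gene and up to 5 called genes of largest size. Further genes of the lists were named after their values were seen. Alternatives covered scaling, filters, distinct reads, pseudocounts, genes above 5% of a library, blocks and single libraries left out.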

Additional observations from a re-analysis of the deposited data

Results flagged for a closer look

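AT2G01540 moved in opposite directions in different baits when measured in CPM. Its mean log2 change in CPM at 2 and 4 h from 0 h was -1.888 with PKS5 and 0.5973 with SCAB1, a difference of -2.485, and both later libraries of each bait lay on the same side of their 0 h library. With SOS2 it was -0.9172, which differed from SCAB1 by -1.515 in CPM. On the TMM scale of the tests the SOS2 change was 0.54, in the direction of SCAB1 (2.11). With distinct reads SOS2 minus SCAB1 was 0.39 in place of -1.57, and PKS5 minus SCAB1 was -0.48 in place of -3.12. The differences were tested by limma-voom after the data were seen, and neither was called (adjusted p = 0.847 for PKS5 minus SCAB1 and 0.898 for SOS2 minus SCAB1).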

How the results depend on the processing

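Of 600 settings of list genes by bait, 554 kept their side of the threshold, 38 lost a call and 7 gained one. In the other 1, PYR1 with SOS2, a call was lost and its direction reversed (-0.0311 with distinct reads). The 554 include differences called in neither fit whose sign changed. Examples are PYL1 with SOS2 under distinct reads and PYL4 with PKS5 without PKS5 replicate 3. Calls for 2 and 4 h against 0 h numbered 62 with library size alone, all lower. There were 40 with at least 100 reads and 12 with distinct reads, all higher, and 6 without a filter (5 higher, 1 lower). With a library left out, calls numbered 0 to 70 (70 without PKS5 replicate 3, 69 higher and 1 lower). For 4 h against 2 h they were 3 without a filter and 0 to 3 with a library left out. Genes other than the 7 called for a bait numbered 1050 for PKS5 (675 with library size alone, 201 with distinct reads), 1340 for SCAB1 (827, 218, and 812 with at least 100 reads) and 1548 for SOS2 (312 with distinct reads, 983 with at least 100 reads). Fewer genes were tested with at least 100 reads (1233) and with distinct reads (872). The counts of list genes without BON1, ZAC and RCAR3 were added after the data were seen. For the other settings the cause was not tested. Library size alone moved the median log2 difference of all genes to -0.26 for PKS5, -0.50 for SCAB1 and 0.57 for SOS2. In log2, PKS5 minus the mean of the other baits became 2.25 for AT5G37740, 1.10 for AT1G70790, 1.36 for AT2G01540 and 4.39 for AT5G47710 with distinct reads scaled to the library. Without genes above 5% in the total it became 6.83 for AT5G37740, 3.89 for AT1G70790 and 10.64 for AT5G47710, and 9.42 for AT5G47710 with a pseudocount of 10. The replicate number is also the recovery time, so same-numbered libraries of different baits share a condition. Their deviations correlated at -0.017 to 0.221, and 4 of 9 libraries correlated best with their own number. The bait tests left the number out, so their spread within a bait holds the recovery times too. With the replicate number, and so recovery time, as a block, calls were 1177 for PKS5, 1507 for SCAB1 and 1656 for SOS2. Depth limits AT1G70810, EHB1 and AT1G23140, which had at most 12 reads in a library. In the bait and recovery fits with library size alone or at least 100 reads, the recovery fit without PKS5 replicate 2 and the fit of differences between baits with library size alone, limma took 1 common variance for most genes, after the voom weights. The adjusted p-values of those genes there do not use each gene's own spread.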
